A study of Homo sapiens with 21 samples.

Results

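Constant intergenic H3K4me3 regions are stretches of chromatin that carried trimethylation of histone H3 lysine 4 in every library of the study and lay away from known coding and long noncoding genes. They were chosen by 2 criteria. A region had to hold a called H3K4me3 peak in all 9 H3K4me3 libraries. It also had to overlap no protein-coding or lncRNA gene of the deposited annotation and lie over 1 kb from the outer 5' end of each such gene. Of 19279 merged regions, 13883 were called in all 9 libraries and 1046 of those met both criteria. The comparison sets were the 10135 constant promoter regions, within 1 kb of such a 5' end, and the 2702 constant regions inside genes. The members were therefore selected on measured peak calls, and their presence in every library is not a finding. Overlap and distance were judged from the edges of the merged region, so wide regions were less likely to qualify. How wide each was in a given library was not otherwise used.

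The cells were RS4;11, an established line of B-precursor acute lymphoblastic leukaemia with a KMT2A-AFF1 fusion, kept for 24 h in 1 of 3 media. One was complete medium (+Asn) and another lacked asparagine (-Asn). The last lacked asparagine and held ferric nitrate at 10 µM with hinokitiol at 0.75 µM (-Asn+Fe). Hinokitiol is a lipid-soluble compound that binds iron and moves it through membranes; no group received hinokitiol alone, so the iron salt and its carrier cannot be told apart. Each medium had 3 H3K4me3 ChIP-seq and 3 RNA-seq libraries and 1 input library, and nothing in the labels says that replicates were separate cultures, so p-values measure the spread between these libraries.

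H3K4me3 is placed by the KMT2 and SETD1 methyltransferase complexes and removed by KDM5 demethylases, which are iron-dependent dioxygenases. It marks active and poised promoters, most of them at CpG islands, and it also covers the start sites of tRNA, snRNA and other short RNA genes and some enhancers that make RNA. Away from annotated genes it commonly marks starts that a given annotation lacks. Starved of asparagine, cells raise the transcription factor ATF4 and its target genes and slow growth. Asparagine-depleting enzymes are part of the treatment of this leukaemia.

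RNA totals ran from 29362707 to 42478518 reads per library over 66738 genes. RNA levels are given as CPM, counts scaled to the library total multiplied by its TMM factor, edgeR's scaling factor for each library. All 11 precursor B cell markers had a mean of at least 1 CPM, from 13.2 CPM (BLNK) to 1144 CPM (PAX5). So did all 3 markers of KMT2A-rearranged leukaemia. The 5 T cell and 4 erythroid markers stayed at or under 0.0216 CPM, and of 4 myeloid markers CSF1R reached 13.2 CPM. In such bulk data, fewer cells of a type and less RNA per cell cannot be told apart. The peak table holds positions and no read counts, so the depth of the H3K4me3 libraries is unknown.

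Several members sit on short RNA genes, and the clearest is at the microRNAs MIR132 and MIR212 (chr17:2049305-2051540, hg38). Among the members that hold a microRNA gene it widened most. The mature sequences below come from RefSeq (GRCh38.p14), with the seed (bases 2 to 8) in capitals. The 3p arms of the pair share the seed AACAGUC, and the 5p arms have different seeds.
hsa-miR-132-3p: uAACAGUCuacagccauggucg
hsa-miR-212-3p: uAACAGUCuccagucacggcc
hsa-miR-132-5p: aCCGUGGCuuucgauuguuacu
hsa-miR-212-5p: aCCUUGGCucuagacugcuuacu

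The widest member lies at the joining segments of the immunoglobulin heavy chain locus (chr14:105856397-105864322) and holds 4 more microRNA genes. Their mature sequences are shown because they carry GAGCU and GGGCU, the repeat units known from switch regions: each of the 4 holds at least 1 of them, and miR-4538 and miR-4539 hold both.
hsa-miR-4537: uGAGCCGAgcugagcuuagcug
hsa-miR-4538: gAGCUUGGaugagcugggcuga
hsa-miR-4539: gCUGAACUgggcugagcugggc
hsa-miR-4507: cUGGGUUGggcugggcuggg

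Starts that RefSeq annotates and the deposited annotation does not were found in 108 of the 1046 regions, 14 of them coding starts. RefSeq start windows (250 bases before to 50 after the start) are shown for 3 of these, the first from the MIR132 region. It belongs to the lncRNA LOC124903896 (chr17:2049900-2050199, minus strand) and takes in the whole MIR132 hairpin. Capitals mark the letters TGACGTCA, the cAMP response element (CRE), found once, with 90 bases between it and the start.
LOC124903896: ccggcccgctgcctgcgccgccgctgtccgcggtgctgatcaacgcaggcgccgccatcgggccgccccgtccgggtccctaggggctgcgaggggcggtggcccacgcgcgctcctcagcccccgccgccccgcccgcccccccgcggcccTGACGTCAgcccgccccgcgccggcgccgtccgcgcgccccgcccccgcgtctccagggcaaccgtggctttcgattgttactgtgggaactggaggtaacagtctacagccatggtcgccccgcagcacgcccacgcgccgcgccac
The second (chr12:120291939-120292238, plus strand) is an upstream RefSeq start of SIRT4, a mitochondrial sirtuin, in the region that also holds the U4 spliceosomal RNA genes RNU4-1 and RNU4-2. It too has 1 CRE, in capitals.
SIRT4: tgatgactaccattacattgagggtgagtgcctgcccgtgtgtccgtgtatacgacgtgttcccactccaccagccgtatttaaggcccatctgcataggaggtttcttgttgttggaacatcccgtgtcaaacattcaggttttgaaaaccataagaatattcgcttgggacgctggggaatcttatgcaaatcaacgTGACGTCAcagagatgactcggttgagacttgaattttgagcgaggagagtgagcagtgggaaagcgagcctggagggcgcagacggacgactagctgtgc
The third (chr13:74134355-74134654, minus strand) is an upstream RefSeq start of KLF12, a zinc-finger repressor, in a member about 4 kb wide. Capitals mark 5 GC boxes, GGGCGG.
KLF12: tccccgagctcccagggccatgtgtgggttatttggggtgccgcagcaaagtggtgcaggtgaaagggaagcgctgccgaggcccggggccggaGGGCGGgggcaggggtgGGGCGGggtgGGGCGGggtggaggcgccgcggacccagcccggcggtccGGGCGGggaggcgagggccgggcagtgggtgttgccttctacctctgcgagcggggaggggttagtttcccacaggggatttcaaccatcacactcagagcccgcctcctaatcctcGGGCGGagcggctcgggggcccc

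The 130 RefSeq start windows inside members were rich in CpG: median GC content was 63.8% and the median ratio of observed to expected CpG was 0.715, against 58.7% and 0.579 over all 35116 RefSeq windows of the same length. The MIR132 window had 78.3% GC and 47 CpG. On either strand, TGACGTCA was found in 4 of the 130 windows (3.08%, against 1.85% of all windows), GGGCGG in 58.5% (45.0% of all), the E-box CACGTG in 10.0% (7.26%) and the TATA box TATAAA in 5.38% (11.5%). TGATGCAA, an element bound by C/EBP and ATF4 dimers, was in none of the 130 windows and in 0.866% of all. These are matches of letters only.

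Most members had no gene annotation in either set: 603 of 1046 (57.6%). Each member was put in the first class that applied: 50 held tRNA genes, 14 held antigen receptor segments, 106 of the rest held a RefSeq coding or lncRNA start and 136 of those left overlapped pseudogenes. The remaining 137 had another annotation, of which 115 lay within a RefSeq lncRNA or coding gene without its start. Intergenic position went with less constant marking: 42.5% of 2462 intergenic regions were called in all 9 libraries, against 46.0% of 5871 regions inside genes and 92.6% of 10946 promoter regions. Just outside the criteria, 104 intergenic regions were called in 8 libraries, with a median width of 332 bp in the +Asn libraries that had them, against 832.5 bp for the members. At the distance limit, 10 members lay beyond 1 kb by at most 250 bases, with a median +Asn width of 872.5 bp. The 80 constant promoter regions that fell within 1 kb by less than 250 bases had a median of 1317 bp.

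**Figure D1:**
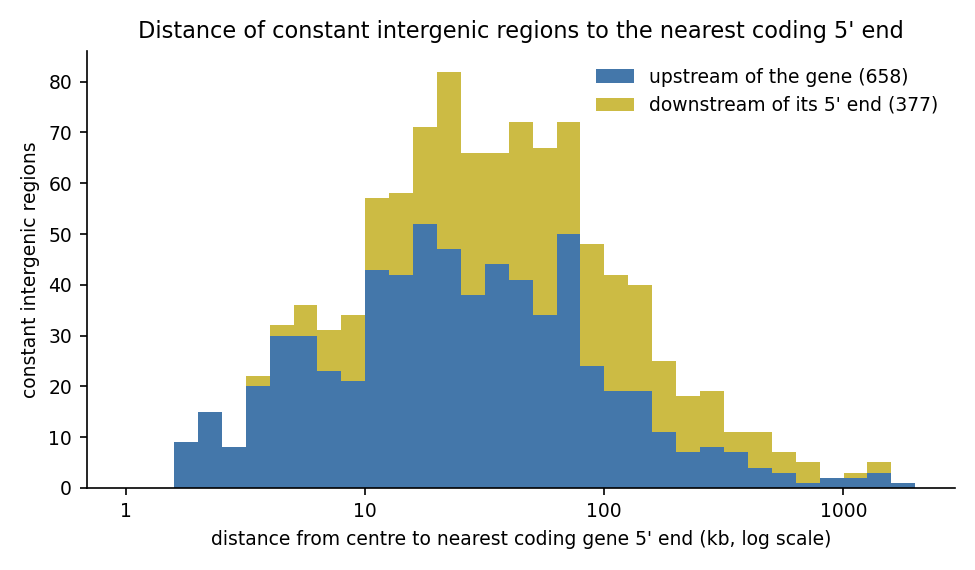
Number of constant intergenic regions (y axis) by the distance from their centre to the nearest protein-coding 5' end (x axis, kb, log scale), with regions upstream of the gene in blue and downstream of its 5' end in yellow. The 1035 regions on standard chromosomes have a median distance of 31.4 kb, and 658 are upstream.

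As the plot of distances shows, members were spread widely around coding genes. On the 1035 regions of standard chromosomes, the centre lay a median of 31.4 kb from the nearest coding 5' end, with the middle 50% between 13.7 and 74.2 kb. In 86 regions that distance was at most 5 kb and in 189 it was over 100 kb. Nearest genes were 865 in number, and the region was upstream of the gene in 658 cases and downstream of its 5' end in 377. The 5 most distant included chr2:193889211-193891297, 1685.7 kb from SLC39A10, which was 1310 to 1919 bp wide in all 9 libraries.

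Constant intergenic regions were narrower than constant promoter regions in 9 of 9 libraries. In the +Asn libraries the median member width, meaning the length covered by peaks, was 847, 858.5 and 785 bp. The medians were 914, 1114 and 1023 bp in -Asn and 1048, 950.5 and 992 bp in -Asn+Fe. Every asparagine-free library thus stood above every +Asn library. The promoter medians were 1826, 1831 and 1783 bp, then 1831, 1987 and 1905 bp, then 1930, 1839 and 1875 bp, so that -Asn replicate 1 did not exceed the +Asn range there. Members were 0.505 times as wide as promoter regions by median (log2 difference -0.99, SD 0.12 over 9 libraries, exact two-sided sign-flip permutation test, p = 0.00391, the smallest it can give). Against regions inside genes the difference was -0.43 (SD 0.06, the same exact test, p = 0.00391). Position was judged from the edges of the merged regions, and what this adds to these width differences was not tested.

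**Figure D2:**
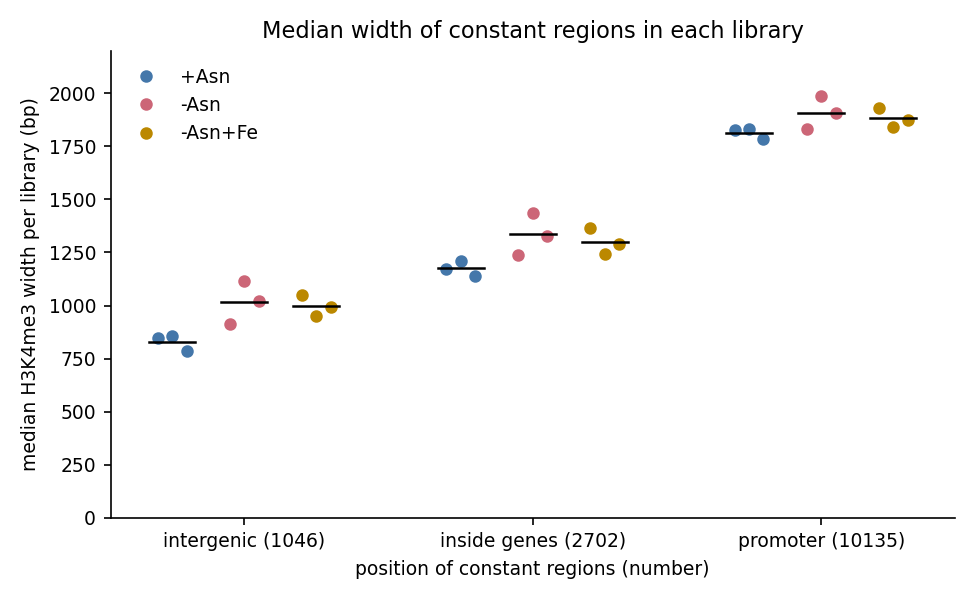
Median H3K4me3 width (y axis, bp) in each library for constant regions by position (x axis), 1 point per library, colour by medium, with the mean of 3 libraries as a line. Intergenic medians run from 785 to 858.5 bp in +Asn and from 914 to 1114 bp in -Asn, and promoter medians from 1783 to 1987 bp over the 9 libraries.

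Members were wider in both asparagine-free media. The log2 difference in median width was 0.29 for -Asn against +Asn and 0.26 for -Asn+Fe against +Asn (pooled SD 0.11 and 0.07). No library of the groups overlapped, and the exact two-sided permutation test gave p = 0.1 each time, the smallest that 3 against 3 allows. Between -Asn+Fe and -Asn the difference was -0.03 and the groups overlapped (exact permutation p = 0.9). More regions were also called in the asparagine-free libraries: 14741 to 15230 in +Asn, 15554 to 17448 in -Asn and 15891 to 17206 in -Asn+Fe, and -Asn replicate 2 had both the most regions and the widest members. Its part in the result was not tested beyond leaving it out, which left a log2 difference of 0.221 for -Asn against +Asn.

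Of the 1046 regions, 216 (20.7%) were called wider in -Asn than in +Asn and 9 (0.86%) narrower, by limma on log2 width with adjustment over all 13883 constant regions, at an adjusted p under 0.05. Over all constant regions, 14.6% were called wider and 1.45% narrower. For -Asn+Fe against +Asn the members' counts were 194 (18.5%) and 12 (1.15%), where 11.7% of all regions were called wider and 1.92% narrower. Between -Asn+Fe and -Asn no region was called among the 1046 and 0% of all 13883 by limma. An unadjusted limma p under 0.05 was found for 67 of the 1046 members and for 1042 of all 13883 regions. The median log2 change over the members was 0.21, 0.18 and -0.02 in those comparisons, against 0.09, 0.07 and -0.02 over all constant regions. Centring each library on its own median moved the split: 157 wider and 26 narrower for -Asn, and 181 wider and 35 narrower for -Asn+Fe, each against +Asn. For -Asn the total of 225 calls fell to 134 when +Asn replicate 3 was left out, to 122 when -Asn replicate 2 was and to 136 when -Asn replicate 3 was. For -Asn+Fe the total of 206 fell to 121 when +Asn replicate 3 was left out, to 108 for its own replicate 1 and to 122 for its replicate 3.

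**Figure D3:**
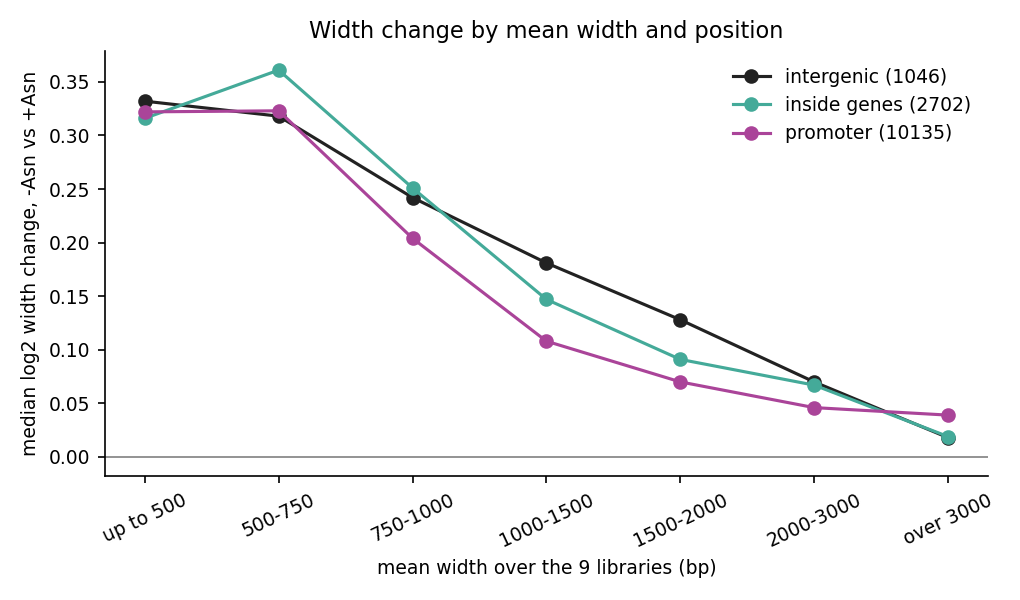
Median log2 width change from +Asn to -Asn (y axis) for constant regions grouped by mean width over the 9 libraries (x axis, bp), in intergenic (black), gene-internal (green) and promoter (purple) position. All 3 lines fall as width grows, from 0.332, 0.316 and 0.322 in regions up to 500 bp to 0.018, 0.019 and 0.039 above 3000 bp.

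The median change fell as width grew in all 3 positions, as the plot of change by width shows. The 144 members up to 500 bp wide changed by a median of 0.332 and the 142 promoter regions of that width by 0.322. From 1000 to 1500 bp the medians were 0.181 in 238 members and 0.108 in 1997 promoter regions, and above 3000 bp they were 0.018 in 28 members and 0.039 in 1314 promoter regions. The share called wider at like width differed in both directions. Between 500 and 3000 bp it was higher in members than in promoter regions, though close from 500 to 750 bp (21.1% against 19.9%). It was 26.5% of members against 14.4% of promoter regions from 1000 to 1500 bp. From 1500 to 2000 bp it was 32 of 128 members against 11.3% of promoter regions. Regions inside genes had 20.3% and 18.8% in those bins. Members had the lower share up to 500 bp (11 of 144 against 17 of 142 promoter regions). The same held above 3000 bp (3.57% against 12.6%). These differences were not tested. Compared at their own widths, members gained 0.22 more on the log2 scale than promoter regions in -Asn (exact permutation p = 0.1). Compared with promoter regions of the same width bins, a comparison chosen after the data were seen, the excess was 0.039 (pooled SD 0.016), and the groups still did not overlap (exact permutation p = 0.1, the smallest possible). For -Asn+Fe against +Asn the excess was 0.21, and 0.056 (pooled SD 0.013) with width bins matched.

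Differences between annotation classes were not tested. Members at tRNA genes were the broadest, with medians of 1778, 1775.5 and 1716 bp in the +Asn libraries, against 728, 720 and 684 bp for members with no gene annotation. Of the 50 tRNA members 3 (6.0%) were called wider in -Asn (limma) and none narrower, and of the 603 unannotated members 147 (24.4%) were wider and 7 narrower. Pseudogene members had 19 of 136 wider and those with a RefSeq start 23 of 106 (21.7%). Over all members 20.7% were wider and 0.86% narrower, and over all constant regions 14.6% and 1.45%. The pseudogene share was thus close to that over all constant regions, and the RefSeq-start share to that over all members. The 14 antigen receptor members had 0 wider and 1 narrower.

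The 50 tRNA members held 70 of the 443 nuclear tRNA genes that RefSeq places on standard chromosomes. A further 83 lay in constant promoter regions, 25 in constant regions inside genes and 264 in no merged region. On chromosome 6, which carries the largest tRNA gene cluster, 22 of the 97 members held tRNA genes. Genes for tRNA-Asn, which carries the amino acid left out of the medium, lay in 2 members. The region at TRN-GTT2-4 (chr13:30673634-30674845) was 1153, 1107 and 1035 bp wide in +Asn, 995, 1060 and 779 bp in -Asn and 1049, 807 and 766 bp in -Asn+Fe. Those ranges overlap between +Asn and each other medium, and its change was -0.23 in -Asn (limma adjusted p = 0.29). The region at TRN-GTT24-1 (chr1:146369738-146370306), 402 to 445 bp in +Asn and 399 to 513 bp in -Asn, changed by 0.11 (limma adjusted p = 0.67). The 3 called tRNA members hold tRNA-Lys (TRK-TTT3-1 and TRK-TTT3-2), tRNA-Glu and tRNA-Leu (TRE-CTC2-1 and TRL-CAA4-1) and tRNA-Leu (TRL-TAG2-1) genes. Each changed by 0.19 to 0.43 (limma adjusted p = 0.0153 to 0.023) and none held its call in every fit that left out 1 library, with adjusted p up to 0.0744.

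Other short RNA genes, looked at after their values were seen, showed both fixed and moving regions. The regions at the Y RNA genes RNY3 and RNY4, whose RNAs bind the Ro protein, stayed between 1900 and 2280 bp in all 9 libraries (chr7:148982462-148984558 and chr7:148962498-148964857). The region at the U4 genes and the upstream SIRT4 start (chr12:120291852-120293366) was 1101, 955 and 894 bp in +Asn, 1344, 1400 and 1388 bp in -Asn and 1206, 1380 and 1238 bp in -Asn+Fe. Both other media stood above +Asn throughout, by 0.49 in -Asn (SE 0.09, limma adjusted p = 0.00629). SIRT4 RNA was 0.49 ± 0.16 CPM (SD, n = 3) in +Asn and 0.64 ± 0.21 CPM in -Asn, and edgeR called no change there (adjusted p = 0.37). The region of the variant U1 gene RNVU1-27 (chr1:148522028-148523863) went from 1494, 920 and 1072 bp to 1706, 1836 and 1730 bp in -Asn, a change of 0.63 (SE 0.14, limma adjusted p = 0.015). That call was lost without +Asn replicate 3 or -Asn replicate 2 (adjusted p up to 0.056).

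At MIR132 and MIR212 the mark widened with a small spread between libraries. Widths were 1217, 1254 and 1202 bp in +Asn, 2089, 2236 and 2161 bp in -Asn and 1956, 1838 and 1826 bp in -Asn+Fe. No library of either asparagine-free medium overlapped +Asn. The -Asn+Fe values lay under those of -Asn, without a limma call between these media. The change was 0.82 in -Asn (SE 0.05, limma adjusted p = 1.02e-05) and 0.61 in -Asn+Fe (SE 0.05, adjusted p = 6.71e-05), each against +Asn, and 1.77-fold in the former. The nearest coding gene, HIC1, a zinc-finger transcriptional repressor that p53 can induce, starts 3.7 kb from the region's centre. HIC1 RNA rose from 12 reads over the 3 +Asn libraries (0.187, 0.115 and 0.028 CPM) to 2.24, 2.72 and 2.35 CPM in -Asn and 2.08, 1.25 and 2.98 CPM in -Asn+Fe (log2 4.42 and 4.21, edgeR adjusted p = 1.2e-07 and 2.1e-07). Of the other microRNA members, MIR4521 (chr17:8185100-8187646) was 2253 to 2533 bp wide and MIR4710 (chr14:104677123-104678973) 1520 to 1703 bp, and neither was called. MIR5195 (chr14:106849837-106851977) was 1962 to 2010 bp in +Asn and 1594 to 1794 bp in -Asn+Fe, with a limma adjusted p of 0.0495 that passed 0.05 in 8 of the 9 fits that left out 1 library (up to 0.135).

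**Figure D4:**
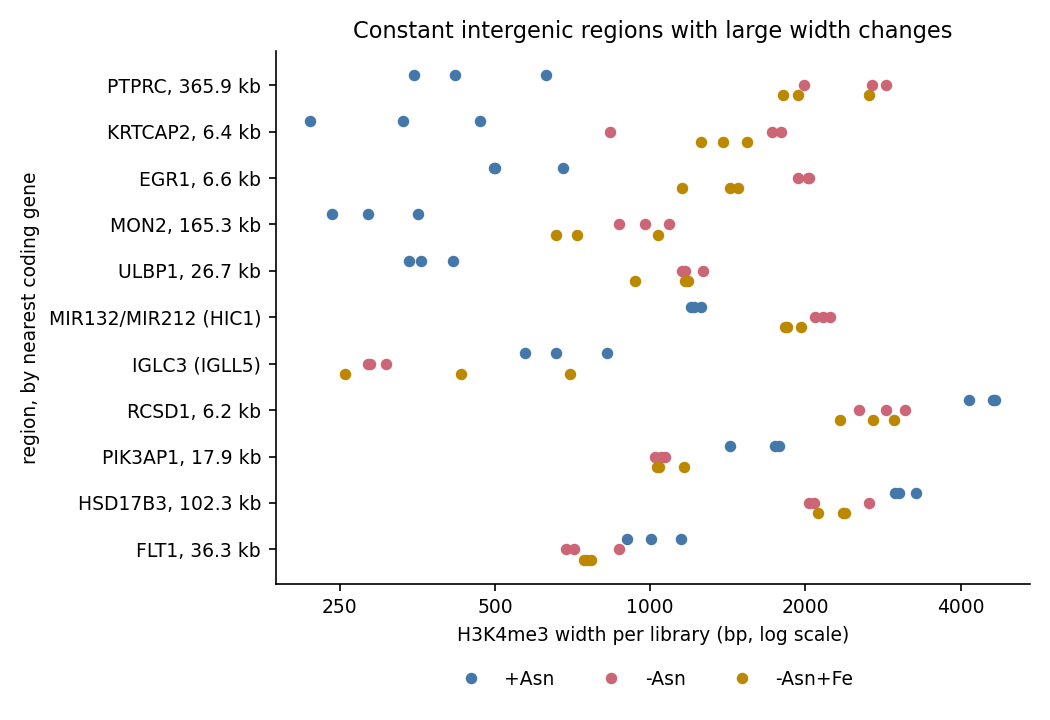
H3K4me3 width (x axis, bp, log scale) in each of the 9 libraries for 11 constant intergenic regions named by their nearest coding gene and distance (y axis), colour by medium. The 5 at the top and MIR132/MIR212 have all -Asn and -Asn+Fe libraries above all +Asn libraries, and in the RCSD1, PIK3AP1, HSD17B3 and FLT1 regions all +Asn libraries lie above the others.

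The member that widened most (chr1:199002652-199006003) lies in the RefSeq lncRNA LINC01222 and was 629, 349 and 419 bp in +Asn, 1984, 2864 and 2687 bp in -Asn and 2659, 1810 and 1932 bp in -Asn+Fe. Its change was 2.46 in -Asn (SE 0.22, limma adjusted p = 9.72e-05) and 2.22 in -Asn+Fe (SE 0.22, adjusted p = 0.000202). The nearest coding 5' end, 365.9 kb away, is that of PTPRC, the CD45 phosphatase of white blood cells, whose RNA rose from 534 ± 21.0 CPM to 742 ± 44.6 CPM (SD, n = 3, log2 0.47, edgeR adjusted p = 2.9e-05). A region 6.6 kb upstream of EGR1, an immediate early transcription factor (chr5:138457765-138460013), was 500, 498 and 678 bp in +Asn and 1933, 2021 and 2031 bp in -Asn. In -Asn+Fe it was 1426, 1154 and 1481 bp, between the other media with no overlap. The difference between -Asn+Fe and -Asn was not called (log2 -0.57, limma adjusted p = 0.37). It changed by 1.85 in -Asn (SE 0.13, limma adjusted p = 2.09e-05) and EGR1 RNA by 0.50 (3.27 ± 0.31 to 4.62 ± 0.25 CPM, SD, n = 3, edgeR adjusted p = 0.004).

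Next to the other leading gains, RNA of the nearest gene differed from case to case. A region 6.4 kb from KRTCAP2, a subunit of the oligosaccharyltransferase (chr1:155166209-155168030), went from 467, 332 and 219 bp to 836, 1726 and 1796 bp in -Asn and 1540, 1381 and 1252 bp in -Asn+Fe. The log2 change was 2.08 (SE 0.31, limma adjusted p = 0.00239), and KRTCAP2 RNA was 5.57 ± 1.11 and 5.25 ± 0.26 CPM (SD, n = 3, edgeR adjusted p = 0.7). A region 26.7 kb from ULBP1, a stress ligand for natural killer cells (chr6:149989998-149991325), went from 341, 360 and 414 bp to 1265, 1167 and 1152 bp in -Asn. Its change was 1.69 (SE 0.12, limma adjusted p = 2.68e-05), while ULBP1 had 0 reads in all 9 libraries. That allows up to 3 reads in each, or 0.0706 to 0.102 CPM by library totals alone, without the TMM factor. A region 165.3 kb from the 5' end of MON2 (chr12:62631499-62632681) widened by 1.75 in -Asn (limma adjusted p = 0.000434). Regions 24.9 kb upstream of SPTLC2 (chr14:77640856-77642392) and 37.5 kb upstream of SAMHD1 (chr20:36988773-36989996) widened by 1.83 and 1.57 in -Asn+Fe against +Asn (limma adjusted p = 0.000163 and 0.00129). SPTLC2, a subunit of serine palmitoyltransferase, was not called in -Asn+Fe against +Asn (log2 -0.20, edgeR adjusted p = 0.0504). In -Asn against +Asn it fell (log2 -0.57, edgeR adjusted p = 2.1e-05), where its region widened by 1.68 (limma adjusted p = 0.000278). SAMHD1, which degrades dNTPs, fell from 58.9 ± 0.5 to 30.2 ± 0.9 CPM (SD, n = 3) in -Asn+Fe (log2 -0.97, edgeR adjusted p = 2.1e-09).

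Narrowing was rare. The member 6.2 kb upstream of RCSD1, an actin-capping-protein regulator (chr1:167621520-167626343), was 4670, 4612 and 4142 bp in +Asn, 2864, 3123 and 2534 bp in -Asn and 2703, 2337 and 2974 bp in -Asn+Fe, with no overlap with +Asn. It changed by -0.66 in -Asn (SE 0.10, limma adjusted p = 0.00188). RCSD1 RNA moved the other way, from 298 ± 2.1 to 548 ± 33.9 CPM (SD, n = 3, log2 0.88, edgeR adjusted p = 9.1e-09). The member 17.9 kb upstream of PIK3AP1, the B cell adaptor BCAP that links the receptor to PI3 kinase (chr10:96737399-96739393), was 1427, 1747 and 1776 bp in +Asn and 1070, 1051 and 1023 bp in -Asn. Its change was -0.65 (SE 0.09, limma adjusted p = 0.00178), and PIK3AP1 RNA fell from 703 ± 6.6 to 484 ± 50.4 CPM (SD, n = 3, log2 -0.54, edgeR adjusted p = 1.3e-05). At the immunoglobulin lambda constant segment IGLC3 (chr22:22905913-22906872) widths were 658, 823 and 572 bp in +Asn, 284, 307 and 286 bp in -Asn and 430, 256 and 700 bp in -Asn+Fe. That change of -1.21 had a limma adjusted p of 0.0278, which rose to as much as 0.0877 without +Asn replicate 2 and also passed 0.05 without +Asn replicate 1 or 3 or -Asn replicate 2 or 3. Its nearest coding gene, IGLL5, fell from 1.72 ± 0.43 to 0.30 ± 0.08 CPM (SD, n = 3, log2 -2.49, edgeR adjusted p = 2.3e-06).

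Of the 5 members that were widest in +Asn, the RCSD1 region was called narrower, as given above. Those at the heavy chain locus, 11.3 kb upstream of PARP8 and 63.7 kb upstream of SELENOP were not called. The one 23.6 kb from PTMA (chr2:231679852-231686771) was 6920, 6710 and 6616 bp in +Asn and 6059, 6230 and 6219 bp in -Asn (log2 -0.13, limma adjusted p = 0.0473, which passed 0.05 in 7 of the 9 fits that left out 1 library, up to 0.143). The PARP8 region (chr5:50650992-50658283) ran from 4362 to 7056 bp within -Asn. The heavy chain joining region was 7441 to 7655 bp in +Asn, 7480 to 7923 bp in -Asn and 7604 to 7877 bp in -Asn+Fe, a change of 0.03 in -Asn (limma adjusted p = 0.57). The 5' end of IGHM, the mu constant gene, lies within 1 kb of it, and IGHM RNA was 35.2 ± 3.6 CPM in +Asn and 45.3 ± 9.5 CPM in -Asn (SD, n = 3, log2 0.36, edgeR adjusted p = 0.027, which rose to 0.131 without +Asn replicate 2 and was also over 0.05 without -Asn replicate 1). The KLF12 member whose start is shown above, picked after its values were seen, was 3971, 4065 and 4015 bp in +Asn, 4120, 4015 and 4203 bp in -Asn and 4235, 4060 and 4067 bp in -Asn+Fe. KLF12 RNA, 65.7 ± 1.4 CPM in +Asn and 57.1 ± 16.8 CPM in -Asn (SD, n = 3), was not called (edgeR adjusted p = 0.27). At the other end, the narrowest member of +Asn by median width lay 52.4 kb upstream of CDKN3 (chr14:54343927-54344913), with 232, 260 and 219 bp in +Asn and 405, 952 and 637 bp in -Asn.

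Some members at the starts of transcribed pseudogenes had no width call beside an RNA change. The STAG3L2 regions (chr7:74889265-74890009 and chr7:74890274-74891611) changed by 0.05 and 0.03 in -Asn (limma adjusted p = 0.8 and 0.83). STAG3L2 RNA rose from 48.7 ± 2.6 to 83.7 ± 1.3 CPM and STAG3L3 RNA from 39.5 ± 2.7 to 73.9 ± 1.6 CPM (SD, n = 3, edgeR adjusted p = 2.6e-08 and 1.3e-08). Those genes are near-identical copies, so how their reads were shared is uncertain. ZNF37BP (region chr10:42551594-42553506, 1759 to 1870 bp in +Asn and -Asn) fell from 109 ± 11.0 to 60.6 ± 8.8 CPM (SD, n = 3, log2 -0.84, edgeR adjusted p = 1.8e-06). AHSA2P was 99.4 ± 6.2 and 97.7 ± 8.3 CPM and was not called (SD, n = 3, log2 -0.02, edgeR adjusted p = 0.79). With library totals alone as the scaling its change was 0.18 (adjusted p = 0.0475).

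The nearest coding genes as a group changed about as often as other coding genes. Of the 865, 608 were expressed enough to test, or 70.3%, against 62.1% of all 19962 coding genes on standard chromosomes. Their median level in +Asn was 2.07 CPM per kb of gene model, against 0.513 over all coding genes. In -Asn against +Asn, 177 (29.1%) rose and 253 (41.6%) fell by edgeR, where 30.7% of all 12603 tested coding genes rose and 38.5% fell. In -Asn+Fe against -Asn, 104 (17.1%) rose and 123 (20.2%) fell, with 15.5% and 21.8% of all. In -Asn+Fe against +Asn, 193 (31.7%) rose and 256 (42.1%) fell, with 31.0% and 40.7% of all. These shares were close to the background in each comparison. Scaling by library totals moved the median of all tested genes by 0.21 in -Asn and 0.25 in -Asn+Fe against +Asn and turned the split: 246 rose and 192 fell in -Asn, and 267 rose and 177 fell in -Asn+Fe, while of all coding genes 41.2% rose and 27.6% fell in -Asn.

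**Figure D5:**
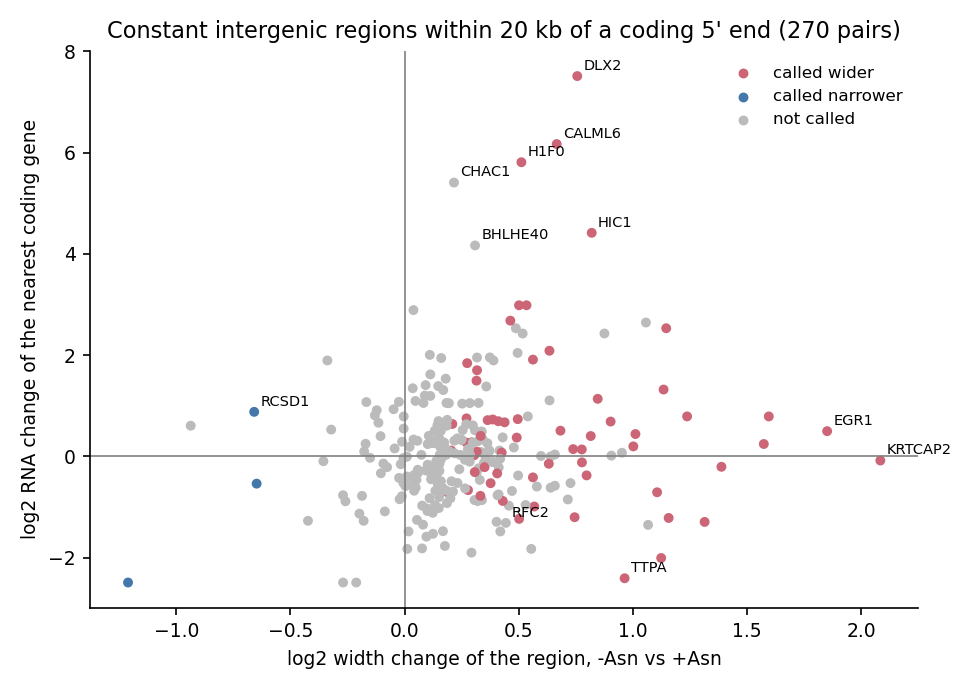
Log2 width change of each constant intergenic region within 20 kb of a coding 5' end (x axis) against the log2 RNA change of that gene (y axis), -Asn against +Asn, 270 pairs, colour by the width call. Widened regions sit beside genes that rose (DLX2 at 7.51) and genes that fell (TTPA at -2.41).

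Within 20 kb, 62 tested genes had a widened member, and 28 of them (45.2%) rose and 17 (27.4%) fell in -Asn. Of the 187 other nearest genes in that range 58 (31.0%) rose and 74 (39.6%) fell. Within 50 kb, 35 of 106 genes next to a widened member rose (33.0%) and 40 fell (37.7%). Of the 300 others in that range 90 (30.0%) rose and 117 (39.0%) fell. Over all distances 52 of 155 genes next to a widened member rose (33.5%) and 57 fell (36.8%). The 20 kb limit was not part of the planned settings, and these differences were not tested. Across the 270 pairs within 20 kb, Pearson's r between the 2 changes was 0.161 and Spearman's rho 0.145. Across the 458 pairs within 50 kb they were 0.0676 and 0.0505, and across all 736 pairs 0.0793 and 0.0879. These describe pairs that share libraries, and some share a gene.

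The genes with the largest RNA rise within 50 kb of a member were DLX2, CALML6, H1F0 and CHAC1. DLX2, a homeobox transcription factor, had 8 reads in the +Asn libraries together and 12.9, 15.3 and 14.1 CPM in -Asn (log2 7.51, SE 0.26, edgeR adjusted p = 4e-13). The region 7.7 kb from it (chr2:172094302-172096048) went from 1074, 1001 and 748 bp to 1433, 1697 and 1595 bp, a widening of 0.76 (limma adjusted p = 0.00355). CALML6, a calmodulin-like gene, rose from 0.23 ± 0.04 to 16.9 ± 2.1 CPM (SD, n = 3), and its upstream region (chr1:1907752-1909891) widened by 0.67 (limma adjusted p = 0.00552). H1F0, the linker histone of cells that stop dividing, was 0.36 ± 0.15 CPM in +Asn, 20.5 ± 2.4 CPM in -Asn and 6.73 ± 0.60 CPM in -Asn+Fe (SD, n = 3). It rose in -Asn by 5.81 and was lower in -Asn+Fe than in -Asn by -1.60 (edgeR adjusted p = 2.7e-13 and 1.1e-07). The region 2.5 kb upstream of it (chr22:37802139-37803061) was 610, 581 and 571 bp, then 796, 886 and 832 bp, then 842, 735 and 811 bp, so that it did not follow the RNA between the asparagine-free media.

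The amino acid response list had CHAC1 and DDIT4 next to members, and both rose in -Asn, as did 30.7% of all tested coding genes. CHAC1, which degrades glutathione, rose from 0.82 ± 0.28 to 35.1 ± 4.3 CPM (SD, n = 3, log2 5.41, edgeR adjusted p = 6.8e-14), and its region 10.8 kb upstream (chr15:40941191-40943041) changed by 0.22 without a call (limma adjusted p = 0.0847). DDIT4, an inhibitor of mTORC1, rose from 28.0 ± 4.3 to 208 ± 22.3 CPM (SD, n = 3, log2 2.89, edgeR adjusted p = 2e-12). Its closer region (chr10:72260418-72261900) was 1074, 1089 and 1025 bp in +Asn and 904, 1134 and 1268 bp in -Asn, which overlap, while another region whose nearest gene is DDIT4 was called wider. BHLHE40, a stress-induced repressor, rose from 1.24 ± 0.17 to 22.2 ± 1.3 CPM in -Asn and 49.7 ± 4.5 CPM in -Asn+Fe (SD, n = 3, log2 4.17 and 5.33 against +Asn, edgeR adjusted p = 7.9e-14 and 1.9e-15), and its region (chr3:4986621-4987544) changed by 0.31 (limma adjusted p = 0.11). Of the p53 and apoptosis list, 4 genes were nearest to members, of which 2 rose and 1 fell in -Asn, where 30.7% of all tested coding genes rose and 38.5% fell. PHLDA3, an inhibitor of AKT, rose from 1.71 ± 0.35 to 7.29 ± 1.09 CPM and BTG2, an antiproliferative factor, from 28.9 ± 1.5 to 76.8 ± 5.0 CPM (SD, n = 3, edgeR adjusted p = 1.1e-08 and 7.3e-11). The BTG2 region (chr1:203326903-203328282) widened by 0.29 (limma adjusted p = 0.0122), a call that was lost when each library was centred on its median (adjusted p = 0.0616).

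Genes of DNA replication next to members fell. All 5 of that list (CCNE1, RFC2, RFC3, POLA2 and E2F3) fell in -Asn, where 38.5% of tested coding genes did. From -Asn to -Asn+Fe 4 of the 5 fell again, where 21.8% of tested coding genes fell. CCNE1, the S phase cyclin E1, was 26.8, 30.3 and 26.5 CPM in +Asn, 2.83, 3.17 and 2.46 CPM in -Asn and 1.37, 2.15 and 1.59 CPM in -Asn+Fe (log2 -3.31 and -4.05 against +Asn, edgeR adjusted p = 3.8e-12 and 4.6e-13). The region 33.1 kb from CCNE1 (chr19:29844203-29845914) stayed at 1420 to 1631 bp in all 9 libraries (0.07 in -Asn, limma adjusted p = 0.41). The region 9.4 kb upstream of MYBL2, a cell cycle transcription factor, was likewise not called (chr20:43656876-43658439, 1299 to 1535 bp), while MYBL2 RNA fell from 594 ± 33.2 to 330 ± 33.8 and 86.8 ± 4.1 CPM (SD, n = 3, log2 -0.85 and -2.77 against +Asn, edgeR adjusted p = 9.9e-08 and 5.3e-14). RFC2, a clamp loader subunit, fell by 1.31 on the log2 scale (edgeR adjusted p = 5.7e-10). RFC3, another, fell from 123 ± 6.3 to 40.6 ± 4.8 CPM (SD, n = 3, log2 -1.60, edgeR adjusted p = 1.7e-10), while its region (chr13:33786624-33788119) went from 576, 961 and 713 bp to 1158, 1224 and 1014 bp. That widening of 0.62 had a limma adjusted p of 0.0379, which passed 0.05 in 6 of the 9 fits that left out 1 library (up to 0.121). TERT, the telomerase catalytic subunit, fell from 33.3 ± 2.1 to 6.89 ± 1.07 CPM (SD, n = 3, log2 -2.27, edgeR adjusted p = 2.6e-10), and its region 21.1 kb upstream (chr5:1315828-1316455) was 487 to 531 bp in +Asn and 474 to 568 bp in -Asn.

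Some regions widened while the nearest gene fell. IKZF1, the lymphoid regulator Ikaros, fell from 525 ± 2.0 to 292 ± 32.4 CPM (SD, n = 3, log2 -0.84, edgeR adjusted p = 9.2e-08). The region 21.5 kb upstream of it (chr7:50281809-50283330) went from 627, 631 and 657 bp to 946, 1445 and 1199 bp in -Asn and 1269, 1101 and 1091 bp in -Asn+Fe (0.89, SE 0.14, limma adjusted p = 0.00299). TTPA, a vitamin E transfer protein, fell from 48.9 ± 2.6 to 9.20 ± 1.06 CPM (SD, n = 3, log2 -2.41, edgeR adjusted p = 2.2e-12), while its upstream region on chromosome 8 went from 613, 552 and 611 bp to 1143, 1155 and 1163 bp (0.96, SE 0.08, limma adjusted p = 8.18e-05). Of the B-lineage list 6 genes were nearest to members, 4 could be tested, and 3 fell in -Asn with none rising, against 38.5% of all tested coding genes that fell and 30.7% that rose. IGLL1 and VPREB1, the surrogate light chain genes, fell from 281 ± 27.0 to 66.8 ± 8.15 CPM and from 151 ± 21.7 to 62.5 ± 9.2 CPM (SD, n = 3, edgeR adjusted p = 3.7e-11 and 5.5e-07). Of the 10 regions of that list 2 were called wider in -Asn and 0 narrower. That was near the shares over all members (20.7% and 0.86%) and over all constant regions (14.6% and 1.45%). A region 6.0 kb from VPREB1 (chr22:22249918-22251412) did not widen (log2 -0.42 in -Asn, limma adjusted p = 0.363). In -Asn+Fe against +Asn it was narrower (log2 -1.04, limma adjusted p = 0.0499). That p passed 0.05 in 7 of the 9 fits that left out 1 library. Of the KMT2A fusion target list 5 were nearest to members, and 4 rose and 1 fell in -Asn, where 30.7% of tested coding genes rose and 38.5% fell. Most of these lay far from their member: ARID1B 88.9 kb, ZEB2 127.5 kb, BCL2 244.9 kb and JMJD1C 1533.1 kb. LMO2, a haematopoietic transcription cofactor, rose from 33.0 ± 2.6 to 81.8 ± 4.9 CPM (SD, n = 3, edgeR adjusted p = 2.1e-10), while its region 2.3 kb upstream (chr11:33893920-33894898) was 545 to 609 bp in +Asn and 439 to 777 bp in -Asn.

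Of the iron handling list 2 of 20 genes (10.0%) were nearest to a member, and of the H3K4 enzyme list 2 of 22 (9.09%), against 4.33% of all coding genes. A share above 4.33% was not particular to these lists. It was 6.25% for the amino acid response, 12.8% for S phase and 15.0% for the B-lineage list. For the p53 and KMT2A target lists it was 16.0% and 16.1%. The iron genes were PCBP1, an iron chaperone, which rose from 388 ± 5.7 to 513 ± 41.3 CPM, and ACO1, the iron regulatory protein IRP1, which fell from 44 ± 1.3 to 16.5 ± 1.1 CPM in -Asn (SD, n = 3, edgeR adjusted p = 9.6e-05 and 3.3e-10). In -Asn+Fe PCBP1 was 426 ± 3.3 CPM, lower than in -Asn (log2 -0.27, edgeR adjusted p = 0.00785). Against +Asn it was not called there (edgeR adjusted p = 0.108). ACO1 was 17.4 ± 1.3 CPM in -Asn+Fe, not called against -Asn (edgeR adjusted p = 0.591). No region of PCBP1 or ACO1 was called by width in any comparison. ACO1 lay 535.5 kb from its region, and PCBP1 44.9 kb from 1 of its 2 regions. WDR5, the shared core subunit of KMT2 complexes, fell from 122 ± 4.6 to 75.4 ± 2.4 CPM and PAXIP1, a KMT2C and KMT2D partner, from 105 ± 7.8 to 43.6 ± 0.3 CPM (SD, n = 3, edgeR adjusted p = 2.8e-07 and 1.7e-10). Their 5' ends lay 28.6 and 94.7 kb from their regions. The WDR5 region, at the minor spliceosome gene RNU6ATAC (chr9:134163283-134164565), was 987 to 1115 bp in +Asn and 1130 to 1233 bp in -Asn, which did not overlap but were not called (0.15, limma adjusted p = 0.18).

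With iron added to asparagine-free medium, 15.5% of all tested coding genes rose and 21.8% fell, while no constant region was called by width. The genes below were picked for large RNA changes, so an uncalled width beside each was given in advance. SNAI1, a repressor of epithelial genes, rose from 3.39 ± 0.49 to 7.51 ± 0.55 CPM (SD, n = 3, log2 1.15, edgeR adjusted p = 1.9e-05). BSN, a presynaptic scaffold gene, fell from 4.77 ± 1.04 to 1.59 ± 0.05 CPM (SD, n = 3, log2 -1.59, edgeR adjusted p = 7.1e-06), and POLA2, a subunit of DNA polymerase alpha, from 7.51 ± 0.62 to 3.06 ± 0.37 CPM (SD, n = 3, log2 -1.30, edgeR adjusted p = 2e-06). The log2 differences in width of their regions from -Asn to -Asn+Fe were -0.42 (SNAI1), -0.26 (BSN) and 0.03 (POLA2), with limma adjusted p of 0.759, 0.596 and 0.975.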

How the data were processed

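Per the labels, RNA-seq, H3K4me3 ChIP-seq and input libraries of RS4;11 cells were made in 3 media; the inputs were not used here. RNA values are the authors' deposited read counts, not normalized, from bcl2fastq, STAR 2.7.2a and featureCounts (Subread 1.6.5) on hg38, per the submitters' processing notes. The deposited peak table gives, as another kind of value, the positions of peaks in each library and no read counts; the submitters' processing notes name MACS2 2.2.7.1, Bowtie2 2.4.4 and Picard 2.18.26. Not given in the sources used here: strand setting, treatment of multi-mapping reads, peak threshold and use of inputs. The table has 12 column names over 13 fields, so the last 9 fields were read as the 9 libraries, and "untreated" as complete medium.

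Width was the length covered by peaks of a region in a library. Log2 widths of the 13883 constant regions were fitted with limma 3.58.1 (variance trend, 3 groups), and counts of 17939 genes with edgeR 4.0.16's quasi-likelihood test (TMM scaling, R 4.3.3), each with Benjamini-Hochberg adjustment and a threshold of 0.05. CPM are counts scaled to the library total multiplied by its TMM factor. The scripts were tested on simulated data. Medians per library were compared by exact permutation. A region was assigned to the coding gene with the nearest outer 5' end to its centre.

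Members and gene lists were chosen with earlier results of these data known. Named regions were up to 5 per comparison and direction with the largest called, non-overlapping width change, the 5 widest and 5 narrowest in +Asn, the 5 farthest from coding genes, up to 8 at expressed genes of another biotype and up to 8 at microRNA genes. Named genes were up to 4 per comparison and direction within 50 kb with at least 1 CPM, and up to 4 per list. Alternatives included DESeq2 1.42.0, other scalings, a minimum width of 500 bp and leaving out each library.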

Additional observations from a re-analysis of the deposited data

How the results depend on the processing

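With a minimum width of 500 bp, the excess of the members' change over that of promoter regions was 0.138 in -Asn and 0.128 in -Asn+Fe, each against +Asn, the members' own change in -Asn+Fe was 0.179 and its calls numbered 137. Against promoter regions of the same widths, added after seeing the data, the excess was 0.039 and 0.056. In each of these cases the cause was not tested. Without a variance trend, 1 region was called between -Asn+Fe and -Asn. Of nearest genes within 50 kb, 282 were called in -Asn, where fewer genes were tested. Leaving out each library in turn gave changes in median width of 0.221 to 0.364 (-Asn against +Asn), -0.1 to 0.043 (-Asn+Fe against -Asn) and 0.224 to 0.298 (-Asn+Fe against +Asn). It gave an excess over promoter regions of 0.179 to 0.262, -0.051 to 0.032 and 0.183 to 0.229, and 122 to 276, 0 and 108 to 226 called regions. Called nearest genes were 404 to 458, 173 to 234 and 411 to 486. Same-numbered libraries did not deviate together (correlations of -0.211 to 0.0933 for H3K4me3 and -0.0806 to 0.0721 for RNA), and a replicate block gave 165, 0 and 152 regions and 423, 210 and 442 genes. DESeq2 called 430, 227 and 449 genes. Of the named calls, 36 of 61 widths and 118 of 129 RNA changes held with every single library left out. Among 3783 alternatives for named widths none changed direction, and of 2520 for named RNA changes 1 did: AHSA2P in -Asn against +Asn, at 0.184 with library totals only. Widths come from called peaks without read counts, so what depth contributes to them was not tested.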

Other observations

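Of the 214 members called wider in -Asn on standard chromosomes, 207 (96.7%) extended outward at both edges, by a median of 166 bp on the side facing the nearest coding 5' end and 174 bp on the other. The facing side grew more in 94 of them (43.9%). Over all 1035 members on standard chromosomes, 676 (65.3%) extended outward at both edges, and the medians were 59 and 65.7 bp.

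Members also gathered at some loci. TMEM121, the coding gene next to the immunoglobulin heavy chain locus, was the nearest coding gene of 13 members, and PTMA, which encodes prothymosin alpha, of 4. The next merged region of any kind lay within 2 kb of 170 of the 1046 members (16.3%), and the median distance to it was 16.4 kb.

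A region 47.5 kb from VANGL2 (chr1:160446974-160449093) was narrower in -Asn+Fe than in +Asn: 1095, 990 and 1198 bp against 2120, 1659 and 1575 bp (log2 -0.70, limma adjusted p = 0.00572). Measured as outer span, the difference was -0.55 and the call was lost (adjusted p = 0.0723). In -Asn it was 1656, 1922 and 1532 bp, a change of -0.06 (adjusted p = 0.764). Between -Asn+Fe and -Asn the test gave -0.64 (adjusted p = 0.329).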
